A study of Mus musculus with 6 samples.

Results

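The AP-1 and immediate early genes described here are Fos, Fosb, Fosl1, Fosl2, Jun, Junb, Jund, Egr1, Atf3 and Ier2, taken by symbol from the table of gene values. They are 10 of the 26323 genes on the array, and all 10 were measured on all 6 arrays. The arrays hold RNA from wild-type mouse fibroblasts that were turned toward blood by lentiviruses carrying 5 factors of blood development: SCL, RUNX1c, LMO2, GATA2 and ERG. Untreated MEFs (embryonic fibroblasts from E14.5 embryos, which received none of the factors) had 2 arrays. CDH5+ cells, sorted by the endothelial surface protein CDH5 on day 8 after that transduction, had 2 arrays. c-KIT+ cells, sorted on day 12 by c-KIT, a surface receptor of blood progenitors, also had 2 arrays. The transduced cultures grew in hematopoietic medium with blood cytokines, and both of their groups were flow-sorted, so transduction, medium, days in culture and sorting cannot be told apart between them and untreated MEFs. The study calls the arrays biological replicates. How the cultures were separated is not given further, so the p-values measure the spread between these arrays only.

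Immediate early genes are switched on within minutes of a stimulus, without new protein synthesis, when growth factors, cytokines or stress activate MAP kinases and transcription factors such as SRF and CREB that already sit in the cell. The FOS proteins pair with JUN proteins to form AP-1, a dimer that binds DNA sites within the pattern TGANTCA. In that pattern N stands for any base, and not every such form need be a site. JUN proteins also pair with each other and with ATF proteins such as ATF3. In fibroblasts AP-1 is best known for the response to serum, in blood for myeloid differentiation and cytokine signalling. The same genes are also known to rise when tissue is dissociated and cells are sorted.

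Promoter letters are shown for Fos, Fosb, Fosl2, Jun and Atf3, a choice from the members for which a promoter could be matched. Junb and Jund were also matched and are not shown. Each line holds the 100 bases before the start of the gene, read 5′ to 3′ on the strand of the gene, from the RefSeq promoter table, which uses build GRCm38.p6. Capitals mark TGACG, the half-site of the CREB and ATF element, on either strand, or TGACATCA, a variant of that element. 
Fos, GRCm38.p6 chr12:85473790-85473889, plus strand: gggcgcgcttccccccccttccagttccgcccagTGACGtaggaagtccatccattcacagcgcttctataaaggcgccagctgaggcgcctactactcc
Fosb, GRCm38.p6 chr7:19310046-19310145, minus strand: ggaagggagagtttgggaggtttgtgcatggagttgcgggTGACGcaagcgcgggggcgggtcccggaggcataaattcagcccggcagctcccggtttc
Fosl2, GRCm38.p6 chr5:32136372-32136471, plus strand: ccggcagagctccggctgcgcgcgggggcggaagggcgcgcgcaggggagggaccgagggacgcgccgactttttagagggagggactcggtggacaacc
Jun, GRCm38.p6 chr4:95052223-95052322, minus strand: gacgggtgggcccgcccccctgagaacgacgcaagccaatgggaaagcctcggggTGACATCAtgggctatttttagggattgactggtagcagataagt
Atf3, GRCm38.p6 chr1:191183334-191183433, minus strand: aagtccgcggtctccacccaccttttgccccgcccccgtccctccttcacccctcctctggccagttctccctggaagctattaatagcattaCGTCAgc
A promoter was matched for 7 of the 10 genes and spans 250 bases before to 50 bases after the start. Within that window, none of the 7 held TGANTCA, TGACGTCA (the full CREB element, which is no match to TGANTCA) or a CArG box, the SRF site, on either strand. Letters further from the start were not searched, so a gene can hold such a site outside the window. Of 32851 promoters of the same length, 7.81% held TGANTCA, 1.79% held TGACGTCA and 1.63% held a CArG box. N was searched as any base, so the first share counts letters of that pattern and not AP-1 sites. TGACG and TGACATCA were searched after the letters had been read, and 20.8% and 3.62% of all promoters held them. The TGACG of Fos shown in capitals begins 66 bases before the start, that of Fosb 60 bases before it, and TGACATCA of Jun 45 bases before it. The 5 letters marked in Atf3 are TGACG on the opposite strand, 7 bases before the start at their far end. Fosl2 and Jund held none of these motifs in the window. Junb held a TGACG that begins 106 bases before its start. These matches describe letters and not bound sites.

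Levels below are deposited normalized log2 values, on which 1 unit is a doubling, and the values of a gene are given in the order replicate 1, replicate 2. Levels of different genes come from different probes and were not compared with each other. Background was taken as the 95th percentile of 884 olfactory receptor genes, which lay between 5.90 and 6.04 on the 6 arrays. Endothelial markers averaged 4.51 and 4.7 in untreated MEFs, 7.15 and 7.99 in CDH5+ cells and 5.6 and 5.75 in c-KIT+ cells. Blood markers averaged 4.58 and 4.57, then 7.31 and 7.73, then 8.49 and 8.45. Fibroblast markers averaged 10.27 and 9.04 in untreated MEFs, 9.05 and 7.12 in CDH5+ cells and 7.06 and 7.25 in c-KIT+ cells. The markers ran with the labels, partly by construction, since the lists hold Cdh5 and Kit, by whose proteins the cells were sorted. The first CDH5+ array kept more fibroblast RNA than the second. Neutrophil markers were high in both sorted groups, at 9.47 and 10.02 in CDH5+ cells and 10.58 and 10.61 in c-KIT+ cells, against 4.60 and 4.38 in untreated MEFs. The part of these mixtures in the results below was not tested, and fewer cells of a type and less RNA per cell cannot be told apart in bulk RNA. The 2 untreated arrays stood further apart than the other pairs: 13.4% of all genes differed by more than 1 between them, against 6.96% in CDH5+ and 4.16% in c-KIT+ cells. Of 32 cell cycle genes, 31 were higher on the second untreated array, with a median difference of 2.61. Epithelial markers averaged 5.14 on the first and 6.07 on the second. The part of either in the comparisons with untreated MEFs was not tested.

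**Figure D1:**
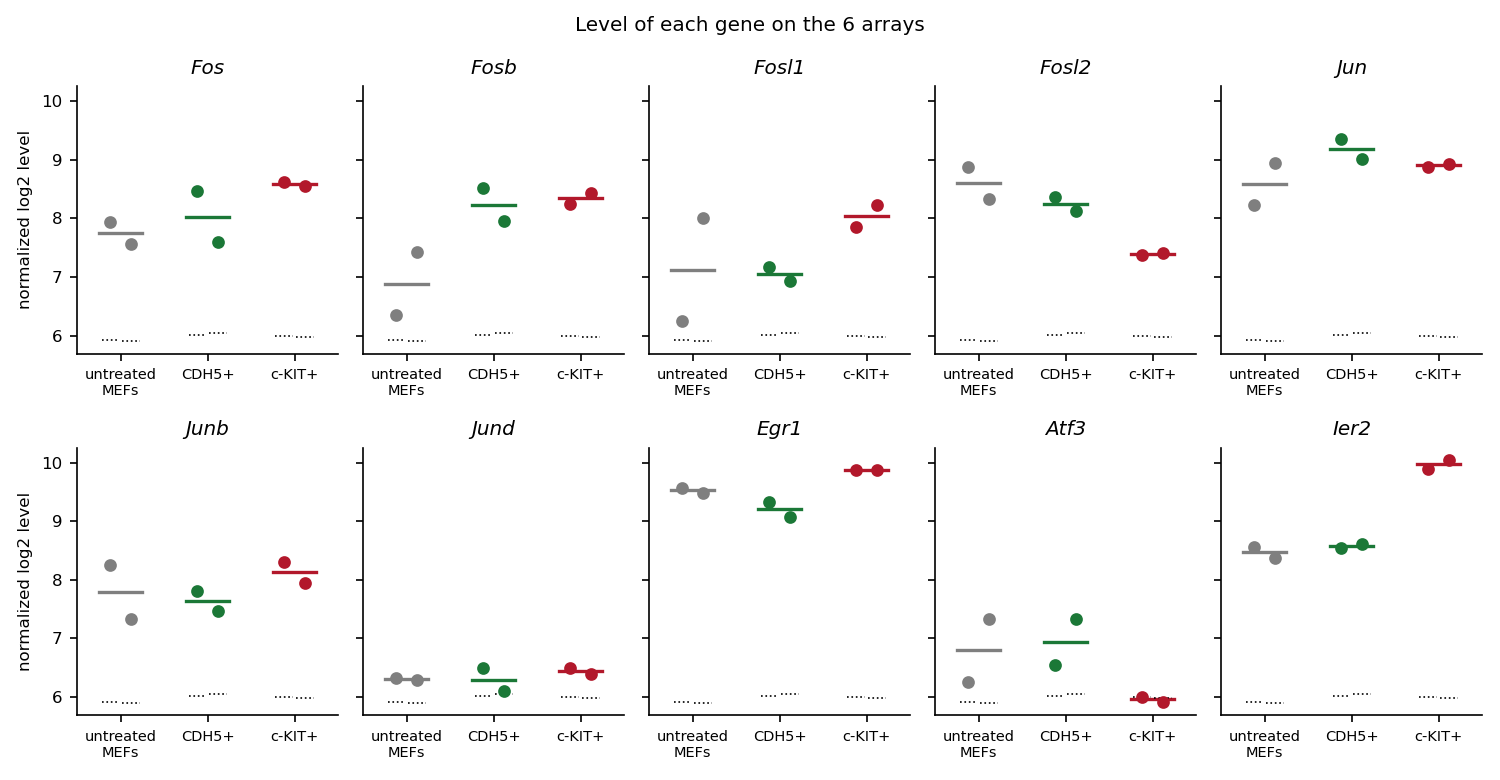
Normalized log2 level (vertical axis) of each of the 10 genes on each array (points, 2 per group), with the group mean (solid bar) and the background of each array (dotted line). Ier2 was at 9.90 and 10.05 in c-KIT+ cells and at most 8.61 elsewhere, Fosl2 was lowest in both c-KIT+ arrays, and the untreated points of Fosb, Fosl1 and Atf3 lie more than 1 apart.

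Across the 3 groups, Ier2 was the 1 member that the test of limma called, and that call hung on the setting. Ier2 (ENSMUSG00000053560) encodes a small nuclear protein of the immediate early response. Its levels were 8.56 and 8.38 in untreated MEFs, 8.54 and 8.61 in CDH5+ cells and 9.90 and 10.05 in c-KIT+ cells. Both c-KIT+ arrays thus lay above the other 4, which overlapped. The moderated F-test of limma over the 3 groups, Benjamini-Hochberg adjusted over all genes, called Ier2 (adjusted p = 0.0271) and none of the other 9, the next being Fosl2 (adjusted p = 0.113), Fosb (0.169) and Egr1 (0.226). That test called 3.3% of all genes, against 1 of the 10 members. The F-test call of Ier2 was lost with quantile normalization (adjusted p = 0.0597), with the replicate number as a block (0.0702), without the first or second CDH5+ array (0.0684 and 0.0719) and without the first or second c-KIT+ array (0.227 and 0.264).

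The comparison of c-KIT+ cells with untreated MEFs asks how the genes of the serum and stress response stood in the emerging blood progenitors. Ier2 was higher by 1.5 (SE 0.20, 95% interval 1.02 to 1.99, limma adjusted p = 0.0148, n = 2 per group), a 2.83-fold difference, and ranked 554 of the 26323 genes by p. Ier2 was the only member called, 1 higher and 0 lower, where 3.24% of all genes were called higher and 2.72% lower. All 3 probe sets of Ier2 were higher in c-KIT+ cells, by 1.34 to 1.78, and in each of them both c-KIT+ arrays lay above both untreated arrays. One of the 3 gave 9.86 and 9.69 in untreated MEFs and 11.43 and 11.68 in c-KIT+ cells, and the others 7.72 and 7.09 against 8.69 and 8.89, and 8.12 and 8.36 against 9.57 and 9.59. In the same comparison 11 of the 12 blood markers were called higher, and their part in the Ier2 value was not tested. The Ier2 call was lost when either c-KIT+ array was left out, with a difference of 1.58 and an adjusted p of 0.132 without the first and 1.42 and 0.153 without the second.

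In the FOS family the c-KIT+ values ran in both directions, and none of its 4 genes passed the test. Fosl2 (ENSMUSG00000029135), which encodes FRA-2, a FOS protein without the strong activating region of FOS, was 8.89 and 8.34 in untreated MEFs, 8.37 and 8.12 in CDH5+ cells and 7.37 and 7.41 in c-KIT+ cells. The c-KIT+ arrays lay below all 4 others. The difference from untreated MEFs was −1.22 (SE 0.25, 95% interval −1.85 to −0.59), a 2.33-fold lower mean, and missed the threshold (limma adjusted p = 0.0532). All 11 probe sets of Fosl2 were lower in c-KIT+ cells, with differences from −1.91 to −0.43, and in 10 of them the groups did not overlap. Only for Fosb and Ier2 did the gene value equal the mean of the probe sets counted here. For Fosl2 it differed from that mean by up to 0.93. Fosl2 passed with the values centred on the median of each array (adjusted p = 0.0467) and without the second untreated array (adjusted p = 0.0269), so its call hung on the setting.

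Fosb (ENSMUSG00000003545), whose full and shortened products both pair with JUN proteins, had higher values in the sorted cells. Its levels were 6.35 and 7.43 in untreated MEFs, 8.52 and 7.95 in CDH5+ cells and 8.25 and 8.43 in c-KIT+ cells. All 4 sorted arrays lay above both untreated arrays. The difference was 1.45 (SE 0.41, 95% interval 0.45 to 2.46, limma adjusted p = 0.109) in c-KIT+ and 1.35 (SE 0.41, 95% interval 0.35 to 2.35, adjusted p = 0.219) in CDH5+ cells. All 6 probe sets had a higher mean in both sorted groups than in untreated MEFs, by 1.13 to 1.70 in c-KIT+ cells and by 0.49 to 2.02 in CDH5+ cells. Neither difference passed, and the untreated arrays were themselves 1.08 apart. The c-KIT+ difference was 0.91 without the first untreated array and 1.99 without the second.

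Fos (ENSMUSG00000021250), the founding partner of JUN in AP-1, was 7.93 and 7.56 in untreated MEFs, 8.46 and 7.60 in CDH5+ cells and 8.62 and 8.56 in c-KIT+ cells. The c-KIT+ arrays were above the other 4 and close to each other, while the CDH5+ arrays were 0.86 apart. In c-KIT+ cells the difference from untreated MEFs was 0.84 (SE 0.33, 95% interval 0.03 to 1.66), with an unadjusted p of 0.0449 that did not survive adjustment (limma adjusted p = 0.224). All 7 probe sets were higher, by 0.48 to 1.30. In CDH5+ cells the difference was 0.29 (adjusted p = 0.748), with 5 of the 7 probe sets higher. The CDH5+ array with the higher Fos value was also the one with the higher fibroblast markers, and their part in it was not tested.

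Fosl1 (ENSMUSG00000024912), which encodes FRA-1, a FOS protein best known from growing and invading cells, had the widest replicate spread of the list. It was 6.24 and 8.01 in untreated MEFs, 7.18 and 6.93 in CDH5+ cells and 7.85 and 8.23 in c-KIT+ cells. The second untreated array fell within the c-KIT+ range, and the first lay below every other array. The differences of 0.92 (SE 0.57, adjusted p = 0.435) in c-KIT+ and −0.071 (SE 0.57, adjusted p = 0.971) in CDH5+ cells were inside that spread, and the second turned positive, to 0.15, with quantile-normalized values. The c-KIT+ difference was 0.031 without the first untreated array and 1.80 without the second, so its size depended on which untreated array was kept. A list of 32 cell cycle genes moved with that array: 31 of them were higher on the second untreated array than on the first, with a median difference of 2.61, while Fosl1 was 1.77 higher. In c-KIT+ cells all 32 had a higher mean than in untreated MEFs (median 1.55). After adjustment limma called 0 of them, where 3.24% of all genes were called higher. Before adjustment 7 were higher at 0.05, where 11.2% of all genes were. The part of proliferation in the Fosl1 values was not tested.

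**Figure D2:**
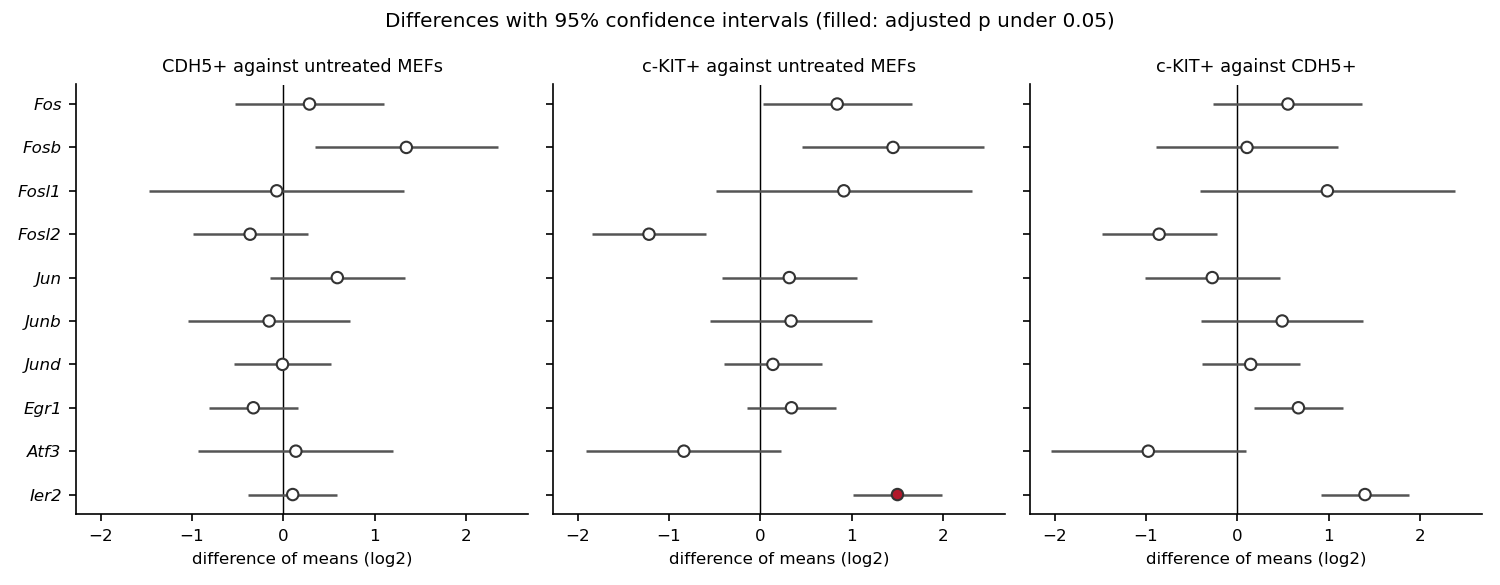
Difference of group means on the log2 scale (horizontal axis) with its 95% confidence interval for the 10 genes in the 3 comparisons, 2 arrays per group. Filled points passed the adjusted threshold of 0.05. Ier2 in c-KIT+ cells against untreated MEFs, at 1.5, is the one filled point, and Fosl2 at −1.22 is the lowest point in that panel.

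None of the 3 JUN genes passed in any comparison. Jun (ENSMUSG00000052684), the main activating partner in AP-1, was 8.22 and 8.95 in untreated MEFs, 9.35 and 9.01 in CDH5+ cells and 8.88 and 8.93 in c-KIT+ cells. Both CDH5+ arrays were above both untreated arrays, by a narrow margin for the second, and the c-KIT+ arrays lay inside the untreated range. The difference was 0.59 (SE 0.30, 95% interval −0.15 to 1.33, limma adjusted p = 0.423) in CDH5+ cells and 0.32 (SE 0.30, adjusted p = 0.62) in c-KIT+ cells. Of 24 probe sets, 23 had a higher mean in CDH5+ and 23 in c-KIT+ cells, so the probes ran together while the arrays did not. Without the first untreated array the c-KIT+ difference was −0.048.

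Junb (ENSMUSG00000052837), a JUN protein that can restrain JUN and is needed in myeloid cells, was 8.26 and 7.32 in untreated MEFs, 7.81 and 7.46 in CDH5+ cells and 8.31 and 7.95 in c-KIT+ cells. The groups overlapped in both comparisons with untreated MEFs, at −0.15 (SE 0.36, adjusted p = 0.891) for CDH5+ and 0.34 (SE 0.36, adjusted p = 0.667) for c-KIT+ cells, and the sign of each depended on the setting. Jund (ENSMUSG00000071076), the JUN gene that is known to be expressed steadily rather than induced, was 6.33 and 6.28, then 6.49 and 6.11, then 6.50 and 6.39. All 6 values lay above background, that of the second CDH5+ array by a small margin. Its differences from untreated MEFs were −0.0085 (95% interval −0.54 to 0.53) in CDH5+ and 0.14 (95% interval −0.40 to 0.67) in c-KIT+ cells. Among its 13 probe sets, 7 were higher and 6 lower in each comparison.

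Atf3 (ENSMUSG00000026628), a stress-induced ATF protein that pairs with JUN and often represses, was 6.26 and 7.34 in untreated MEFs, 6.54 and 7.33 in CDH5+ cells and 6.00 and 5.92 in c-KIT+ cells. In c-KIT+ cells it was at background, above it on 1 of 2 arrays and only just, while the other 4 arrays were above it. The difference of c-KIT+ cells from untreated MEFs was −0.84 (SE 0.43, 95% interval −1.90 to 0.23, limma adjusted p = 0.347), and all 7 probe sets were lower, with differences from −1.45 to −0.07. A value at background sets only a limit on how far a gene fell.

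Egr1 (ENSMUSG00000038418), a zinc finger factor of the serum and growth factor response, was high everywhere, at 9.58 and 9.49 in untreated MEFs, 9.33 and 9.08 in CDH5+ cells and 9.88 and 9.87 in c-KIT+ cells. The CDH5+ arrays lay below and the c-KIT+ arrays above the untreated pair. The differences were −0.33 (SE 0.20, 95% interval −0.82 to 0.16, adjusted p = 0.501) and 0.34 (SE 0.20, 95% interval −0.15 to 0.83, adjusted p = 0.402), and neither passed limma's test. Of its 18 probe sets, 15 were lower in CDH5+ cells and 15 higher in c-KIT+ cells. The groups did not overlap in that direction in 10 of the 18 for CDH5+ and in 9 for c-KIT+ cells. Some of the 18 had low values, 1 of them 2.05 and 3.44 in untreated MEFs. The gene value is not their mean and differed from it by up to 1.21.

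Counted over the list, the c-KIT+ arrays lay wholly above the untreated arrays for 5 members (Fos, Fosb, Jund, Egr1 and Ier2) and wholly below for 2 (Fosl2 and Atf3), where 28.6% of all genes lay wholly above and 22.9% wholly below. Before adjustment, 3 members (Fos, Fosb and Ier2) passed 0.05 upward by limma and 1 (Fosl2) downward. Of all genes, 11.2% did so upward and 9.85% downward. The median difference of the 10 members was 0.34, against 0.05 over all genes. With CDH5+ cells, 2 members lay wholly above (Fosb and Jun) and 1 wholly below (Egr1), against 18.1% and 25.2% of all genes. No member was called there by limma, where 0.965% of all genes were called higher and 0.213% lower. Before adjustment, 1 member (Fosb) passed 0.05 upward and 0 downward, where 6.3% of all genes did so upward and 8.99% downward. The median of the members was 0.05 and that of all genes −0.07. Both comparisons used the same untreated arrays.

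**Figure D3:**
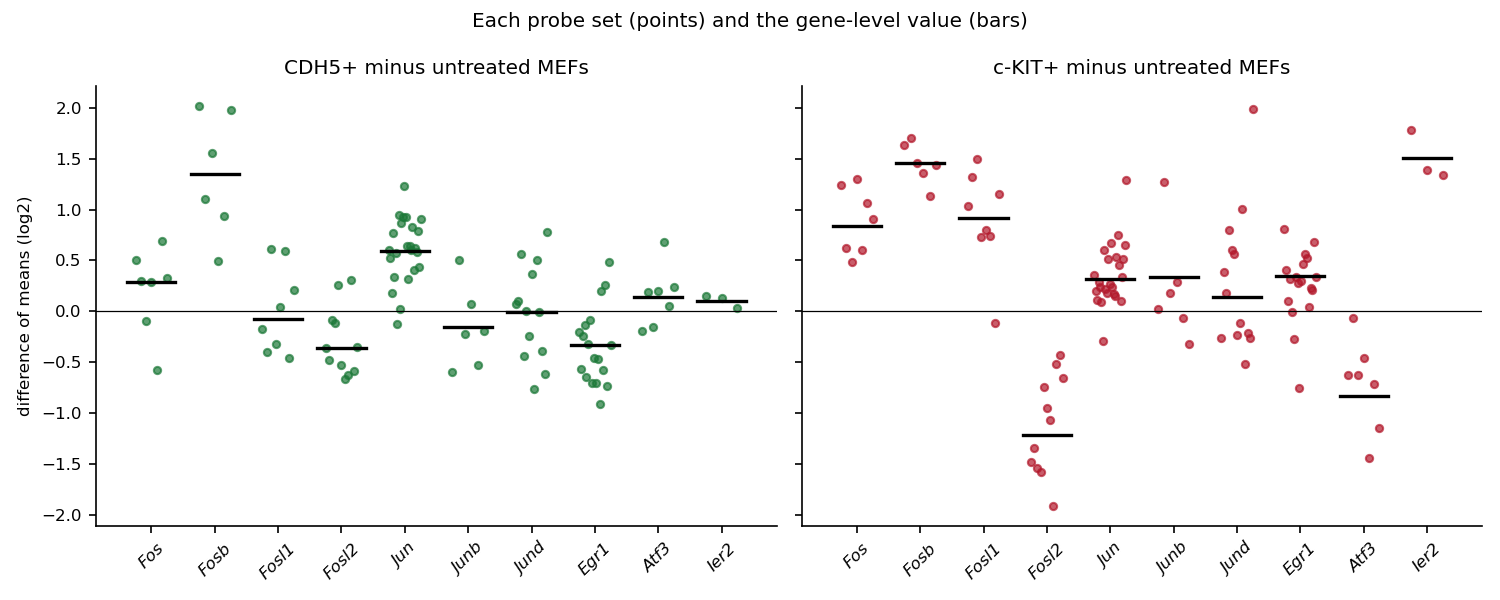
Difference of group means on the log2 scale (vertical axis) for each of the 103 probe sets of the 10 genes (points) and for the gene value (bars), CDH5+ (left) and c-KIT+ cells (right) against untreated MEFs. All 11 probe sets of Fosl2 and all 7 of Atf3 lie below 0 in c-KIT+ cells, and all 6 of Fosb and all 3 of Ier2 lie above it.

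Between the day 8 and the day 12 cells, Ier2 had the lowest p of the 10 members. It was 1.40 higher in c-KIT+ than in CDH5+ cells (SE 0.20, 95% interval 0.91 to 1.88) and ranked 83 by p, with an adjusted p of 0.14 by limma. No gene of the array passed in this comparison, which called 0% of genes in either direction, and the lowest adjusted p was 0.111. Before adjustment, 11.2% of all genes passed 0.05 upward and 4.79% downward. Among the members Ier2 and Egr1 did so upward, Egr1 by 0.67 (SE 0.20, adjusted p = 0.241), and Fosl2 downward, with −0.86 (SE 0.25, adjusted p = 0.242). For 5 members (Fos, Fosl1, Junb, Egr1 and Ier2) both c-KIT+ arrays lay above both CDH5+ arrays, against 36.6% of all genes, and for 3 (Fosl2, Jun and Atf3) below, against 18.7%. Atf3 differed by −0.97 (SE 0.43, 95% interval −2.04 to 0.09) and Fosl1 by 0.99 (SE 0.57, 95% interval −0.41 to 2.39), both without passing. Fosb differed by 0.11 (SE 0.41, 95% interval −0.89 to 1.11), and by −0.20 after quantile normalization. The members' median was 0.32, against 0.10 over all genes.

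Genes that surround AP-1 in the same response were taken as lists. Of 16 measured partners of AP-1 outside the 10 members (other ATF, MAF and BATF proteins among them), 1 rose in c-KIT+ cells and 0 in CDH5+ cells, while 3.24% of all genes rose in the former and 0.965% in the latter. It was Batf, whose protein pairs with JUN in blood cells, at 5.64 and 5.94 in untreated MEFs and 7.53 and 7.72 in c-KIT+ cells, a difference of 1.83 (SE 0.22, limma adjusted p = 0.0121). Batf was above background on 1 of the 2 untreated arrays, and that one only just, so the size of its rise is open to that floor. Of 23 other immediate early transcription factors, 1 fell in both sorted groups and 0 rose, while 0.213% of all genes fell in CDH5+ and 2.72% in c-KIT+ cells. It was Nr4a1, an orphan nuclear receptor of the early response, with 8.67 and 8.51 in untreated MEFs, 6.94 and 6.49 in CDH5+ cells and 6.70 and 7.06 in c-KIT+ cells. It fell by 1.87 in CDH5+ cells (adjusted p = 0.0366) and fell by 1.71 in c-KIT+ cells (adjusted p = 0.0208). The median of this list was −0.24 in the day 8 and −0.22 in the day 12 group, against −0.07 and 0.05 over all genes.

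Immediate early genes that encode signalling, RNA-binding and secreted proteins moved both ways. Of 40 measured, 3 rose and 6 fell in c-KIT+ cells, and 2 rose and 2 fell in CDH5+ cells. Of all genes, 3.24% rose and 2.72% fell in the first comparison, and 0.965% and 0.213% in the second. Ctgf, a secreted matrix protein that serum induces in fibroblasts, was 10.67 and 10.63 in untreated MEFs, 8.38 and 8.35 in CDH5+ cells and 6.98 and 6.88 in c-KIT+ cells. It fell by 2.29 in CDH5+ cells (SE 0.19, adjusted p = 0.00714) and fell by 3.73 in c-KIT+ cells (SE 0.19, limma adjusted p = 0.00107). Its relative Cyr61 fell by 2.43 in c-KIT+ cells, from 11.86 and 11.69 to 9.29 and 9.39 (adjusted p = 0.0114). Dusp2, a nuclear phosphatase that turns off MAP kinases in blood cells, went from 5.0 and 4.62, both under background, to 6.66 and 6.85 in CDH5+ and 7.59 and 7.73 in c-KIT+ cells, with adjusted p-values of 0.0233 and 0.00324. Against the background of the untreated arrays it was at least 1.80-fold higher in CDH5+ and at least 3.37-fold higher in c-KIT+ cells. Pim1, a kinase gene induced by cytokine receptors, rose by 2.21 in c-KIT+ cells (adjusted p = 0.00697) and Trib1, a pseudokinase, by 1.34 (adjusted p = 0.0431). Errfi1, a brake on the EGF receptor, fell in c-KIT+ cells to values under background, where it was at least 6.85-fold lower. The other falls there were Gadd45b, a stress protein (−2.22), Plk2 (−1.95) and Spry4, a brake on receptor tyrosine kinases (−1.80). Gadd45b and Spry4 were each under background on 1 of the 2 c-KIT+ arrays. In CDH5+ cells Gadd45b fell by 2.28, again with 1 array under background, and Ccl2, a monocyte chemokine, rose by 1.62, from 9.55 and 9.45 to 11.14 and 11.10.

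Known targets of AP-1 moved both ways. Of 30, 2 rose and 5 fell in c-KIT+ cells, and 0 rose and 2 fell in CDH5+ cells, beside the same shares of all genes, 3.24% and 2.72%, then 0.965% and 0.213%. In c-KIT+ cells Inhba, which encodes the activin A subunit (−2.85), Ccnd1, which encodes cyclin D1 (−2.63), and Itga5, a fibronectin receptor chain (−2.11), fell with limma adjusted p-values between 0.0032 and 0.0204. Tgfb1 rose by 2.17 and Mt1, a metallothionein, by 1.58 in c-KIT+ cells. Inhba and Itga5 are also well known in fibroblasts. Of the 14 fibroblast markers, 13 had a lower mean in c-KIT+ cells, and 5 were called. Their part in these falls was not tested.

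Of 33 kinases and SRF partners upstream of the immediate early genes, 2 rose in c-KIT+ cells, 0 fell, and 0 were called in CDH5+ cells, against 3.24% of all genes rising and 2.72% falling in c-KIT+ cells. They were Map3k5, which encodes the stress kinase ASK1 (at least 1.36-fold higher, since both untreated arrays were under background, limma adjusted p = 0.0231), and Mapk14, which encodes p38 alpha (a log2 difference of 1.30, adjusted p = 0.0202). Of 18 heat shock genes, measured because cell handling can raise them together with the immediate early genes, 0 rose in either group, and Serpinh1, a collagen chaperone, fell by 2.01 in c-KIT+ cells (adjusted p = 0.0155). The heat shock median was −0.31 in CDH5+ and −0.12 in c-KIT+ cells, against −0.07 and 0.05 over all genes. Handling was not measured otherwise and cannot be told apart from the groups. Of the 21 list calls in c-KIT+ cells, 2 stayed past the threshold without the first c-KIT+ array, 3 without the second and 15 to 21 without any 1 of the other arrays. Of the 7 list calls in CDH5+ cells, 0 stayed without the second CDH5+ array and 2 or 3 without any 1 of the others. All kept their direction, which the choice of called genes favours.

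**Figure D4:**
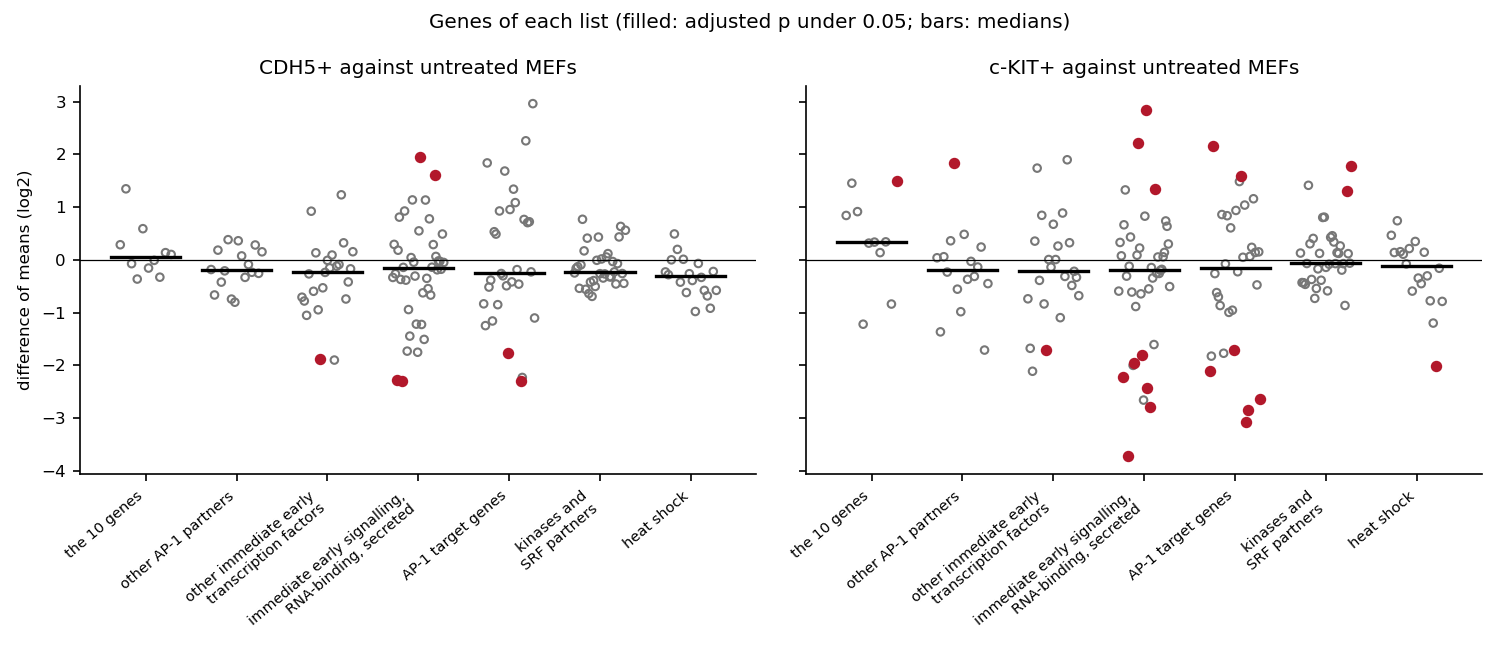
Difference of group means on the log2 scale (vertical axis) for the 10 genes and for 6 lists around them, with 1 point per gene and the median as a bar, CDH5+ (left) and c-KIT+ cells (right) against untreated MEFs. Filled points passed the adjusted threshold. Ctgf lies at −3.73 on the right, and the points of Dusp2 are drawn at measured differences although its untreated values were under background.

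The 10 genes did not share 1 pattern over the arrays. Likeness was measured as the root mean square difference of the 6 values after each gene was centred, on the log2 scale, with no test. The closest pair within the list was Jund and Egr1, at 0.22. The measure is not scaled, so genes that vary little lie close to each other. In CDH5+ cells Egr1 lay wholly below untreated MEFs and Jund did not. Over the whole array, the genes nearest to Ier2 were Asrgl1 (0.06) and Ap5b1 (0.10), Asrgl1 being 6.63 and 6.46 in untreated MEFs, 6.67 and 6.73 in CDH5+ cells and 8.12 and 8.08 in c-KIT+ cells. Nearest to Fosl2 were Atp11a (0.05) and Kalrn (0.06), to Fosb Trbv1 (0.16) and Fam212a (0.18), and to Fos Atp6v1e2 (0.07) and Gm11374 (0.10). Nearest to Jun were Bcl2l1 (0.06) and Gm11716 (0.07), to Junb Gm13657 (0.08) and Fam69a (0.09), and to Jund BC049702 (0.04) and Papln (0.05). Nearest to Egr1 were Gm12500 (0.04) and Nol6 (0.05), to Atf3 Slc20a1 (0.18) and Mapk11 (0.18), and to Fosl1 Gm15642 (0.07) and Rpp38 (0.08). With 26323 genes and 6 arrays, near matches arise for any pattern.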

How the data were processed

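Mouse Exon 1.0 ST arrays were hybridised with RNA of the 3 groups, 2 arrays each. The values deposited by the authors are normalized log2 levels of 26323 genes and 1236087 probe sets. The study's methods name limma for its tests. The normalization of the deposited values and the build were not found in the sources used here.

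From the deposited log2 values, limma 3.58.1 (R 4.3.3) fitted each gene as 1 mean per group over all 6 arrays, with the empirical Bayes variance prior, 3 residual degrees of freedom, two-sided contrasts, a moderated F-test and Benjamini-Hochberg adjustment over all genes at 0.05, without a filter. The script was checked on simulated data. The text names all 10 members, every list gene called (at most 8, otherwise the 4 largest rises and falls; the longer list of 9 is named in full) and the 2 nearest genes. Some called genes of the AP-1 target list are counted but not reported here by name. Members and lists were chosen with earlier results of these data known. The 15 alternatives covered normalization, filters, variance settings, probe set medians, a replicate block and each array left out. The number of arrays limits the precision. A fold against values under background on both arrays of a group is given as a lower bound, from the background or the value, whichever was higher. The main fit used no replicate block, and whether arrays with the same replicate number share a culture is not given.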

Additional observations from a re-analysis of the deposited data

Results flagged for a closer look

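Egr1 stood out because its 2 sorted groups lay on opposite sides of untreated MEFs: both CDH5+ arrays were lower, with a difference of −0.33, and both c-KIT+ arrays were higher, with a difference of 0.34 on the log2 scale. Of all genes, 25.2% lay wholly below in CDH5+ and 28.6% wholly above in c-KIT+ cells. The share of all genes with both was not counted. The test of the difference itself, c-KIT+ against CDH5+ cells, gave 0.67 (SE 0.20) with an adjusted p of 0.241 by limma, so the gap did not pass. Its direction held in 15 of 15 alternatives in each comparison, but groups that do not overlap keep their sign when 1 array is left out. Several other alternatives leave the difference unchanged, so most of the 15 could not have turned it. Its size ran from 0.34 to 1.21 between the sorted groups. With quantile normalization the difference of CDH5+ cells from untreated MEFs was −0.050. With 2 arrays per group, no test for a single stray array was made.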

How the results depend on the processing

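In c-KIT+ cells against untreated MEFs, Ier2 kept its direction in 15 of 15 alternatives (1.34 to 1.59) and passed in 13. Most of these alternatives could not have turned its sign, since the 2 groups do not overlap. Under median centring, an intensity trend in the variance prior or a filter on dim genes 2 members passed there, the second being Fosl2, which passed in 4 of 15 alternatives (adjusted p from 0.0269 to 0.282). The F-test called 0 members after quantile normalization. Deviations of arrays with the same replicate number correlated at 0.12, −0.02 and −0.05, which does not settle whether they were paired. With the replicate number as a block, 198 genes were called in CDH5+ cells against untreated MEFs (310 without it), 481 by the F-test (868 without it) and 0 members by the F-test. That block changed no member's call in a comparison of 2 groups. With only the 4 arrays compared, 114 genes were called in CDH5+ cells. The dim filter called 16 genes between the sorted groups, none of them a member.

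Leaving out 1 array at a time gave 67 to 339 genes in CDH5+ cells (67 without its second array, 114 without either c-KIT+ array), 148 to 3025 in c-KIT+ cells against untreated MEFs (3025 without the second untreated array, 148 and 170 without a c-KIT+ array, 1570 with all) and 0 between the sorted groups. The F-test gave 86 to 1519 genes and 0 to 1 member, Ier2 passing only without an untreated array, and the members called in c-KIT+ cells numbered 0 to 4. Signs turned for small differences. In CDH5+ against untreated MEFs they ran from −0.14 to 0.72 for Fos, −0.96 to 0.81 for Fosl1, −0.62 to 0.31 for Junb, −0.20 to 0.18 for Jund and −0.40 to 0.68 for Atf3. In c-KIT+ against untreated MEFs they ran from −0.048 to 0.68 for Jun and −0.13 to 0.80 for Junb, and in c-KIT+ against CDH5+ from −0.18 to 0.39 for Fosb and −0.045 to 0.34 for Jund. Quantile normalization turned Fosl1 (0.15), Junb (0.068) and Jund (0.090) in CDH5+ cells and Fosb (−0.20) and Jund (−0.012) between the sorted groups. Medians of probe sets turned Fos (−0.040) and Fosl1 (0.044) in CDH5+ cells and Junb (−0.19) in c-KIT+ cells against untreated MEFs. The cause of these shifts was not tested. With the block, 3 of the 7 list calls in CDH5+ and 19 of the 21 in c-KIT+ cells against untreated MEFs stayed. No listed gene that was called changed direction under any alternative that gave it a value, and Ctgf passed under each of these in c-KIT+ cells. Values of Atf3 in c-KIT+ cells and of Jund lay near background.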
